A study of Mus musculus with 10 samples.

Results

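The genes described here are the DNA repair genes of the mouse, chosen by name and not by any measured value. They are the genes with a RefSeq mRNA whose symbol begins with Fanc, or with Rad, Xrcc, Ercc, Msh, Mlh, Parp or Brca followed by a digit, together with Atm, Atr and Ogg1. The rule found 64 of the 16082 genes with a RefSeq mRNA in these samples. All 64 are called repair genes here, though 4 were grouped as matches by name without the established repair role of the family, Fancd2os and Ercc6l2 among them. This grouping does not say that such a gene has no other role in repair. Of 71 genes of these families sought by name, 7 were not analysed here, among them Ogg1 and Fancb. Transcripts of a gene were summed, and 9 of the 64 genes had more than 1.

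Mature sperm and testes were taken from mice that the labels give as C57BL/6 and 3 to 5 months old, where the study's methods give the substrain with a J and a range of age that begins younger. Cadmium animals had received 3 mg/kg of cadmium chloride in 1 injection into the abdomen and control animals saline, and all were killed 35 days later. After ribosomal RNA had been removed, 10 libraries were sequenced: 4 of control sperm, each a pool of animals, and 2 each of cadmium sperm, control testes and cadmium testes. Control sperm 1, which the study set aside because it correlated poorly with the other pools, is shown in the values and left out of the tests. Per the study's methods, the control testes came from the same animals as the sperm pools, whereas the fits treated all samples as unrelated. How cadmium animals were divided among samples is not given in the sources used here, so for them a p-value measures the spread between these samples only, which may be technical. A gene's level is given as FPKM, its fragments divided by the length of the transcript and the size of the library, and its depth as the expected count, the estimated number of its fragments.

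DNA repair runs along several routes that share few proteins. Nucleotide excision repair cuts out bulky lesions with the TFIIH helicases, the Fanconi anaemia pathway frees DNA strands that are bound to each other, homologous recombination copies an intact strand across a break, and mismatch, base excision and end joining repair deal with smaller lesions and loose ends. In the testis, recombination genes also serve meiosis, whereas the chromatin of mature sperm is packed with protamines and transcription is thought to have ceased, so that an RNA found there was made earlier or acquired later.

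The libraries differed strongly in depth. Expected counts summed to between 366455 and 1058017 in the 4 control sperm pools, to 1155491 and 1254477 in cadmium sperm, and to between 2606086 and 2866856 in testes. The floor of a library, set at 3 counts, was a share of 0.000284 to 0.000819% in control sperm and 0.000105 to 0.000115% in testes. RefSeq mRNAs took 9.14 to 13.6% of the counts in the 10 libraries. The protamine gene Prm2 was listed in every library at 147.34 to 438.21 FPKM, and of the 10 sperm and spermatid markers 3 to 8 were listed in each sperm library against 9 or 10 in testes. Prm1 was at 0 to 40.12 FPKM in sperm and 117.96 to 135.58 in testes, and Tnp1 at 0 to 6.21 and 88.12 to 139.96. Tssk6 went the other way, at 12.77 to 167.49 FPKM in sperm and 6.48 to 10.6 in testes. By the test described below, 3 of the 10 were lower in control sperm than in control testes and 1 was higher. Markers of other cells were mixed in sperm. Kit, of early germ cells, and the meiotic genes Sycp1 and Sycp2 were at 0 in all 6 sperm libraries. Cd4, of leukocytes, was between 0 and 1.69 FPKM there. In testes Kit was at 0 to 0.07 FPKM, Sycp1 at 0.72 to 1.47, Sycp2 at 0.2 to 0.62 and Cd4 at 0 to 0.48. At such levels, zeros in the shallower sperm libraries do not show that these cells were absent. Sycp3 was listed in 1 sperm library, cadmium sperm 1, at 3.18 FPKM. Cdh1, of epithelia, was at 0 in the control sperm pools and at 0.2 and 0.54 FPKM in cadmium sperm. Summed over 10 epididymal markers, the level was 4.17 to 12.97 FPKM in control sperm, 9.98 and 10.49 in cadmium sperm and 6.06 to 22.81 in testes. Summed over the 4 measured leukocyte and blood markers, it was 0 to 0.62 FPKM in control sperm, 1.7 and 4.85 in cadmium sperm and 2.54 to 3.84 in testes. The 7 measured Leydig markers summed to 0, 4.31, 27.49 and 2.96 FPKM in control sperm 1 to 4, 4.06 and 6.9 in cadmium sperm and 15.88 to 24.67 in testes. The value in control sperm 3 was Star alone, of steroid synthesis, while Insl3 was at 0 in all 6 sperm libraries. The 9 Sertoli markers summed to 14.82, 2.72, 0 and 4.26 FPKM in control sperm, 3.61 and 9.69 in cadmium sperm and 2.86 to 6.3 in testes, with Amhr2 alone in control sperm 1. The 9 spermatocyte markers summed to 3.97, 7.77, 18.48 and 0 FPKM in control sperm, 12.85 and 9.24 in cadmium sperm and 6.41 to 9.8 in testes, and in control sperm all of it was Syce2.

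The repair genes were a small part of the RNA in both tissues and a smaller one in sperm. Control sperm pools 1 to 4 gave 95.09, 229.89, 39 and 130.93 expected counts over all 64 genes, the control testes 1169.33 and 1226.99, cadmium sperm 332.53 and 396.39, and the cadmium testes 1170.38 and 1285.6. As a share of the counts on RefSeq mRNAs this was 0.116 to 0.241% in control sperm, 0.212 and 0.301% in cadmium sperm, 0.362 and 0.390% in the testes of control animals and 0.365 and 0.409% in those of cadmium animals. The sperm shares all lay below the testes shares. Fanci and Fancl alone held 38.6 to 44.4% of the repair gene counts in testes and 0 to 10.9% in sperm. The order of the shares rests on these 2 genes. With them left out, the share in cadmium sperm 2 was above that in every testes library, so the order did not hold for the rest. In bulk tissue, fewer cells of a type and less RNA per cell cannot be told apart.

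Most of the 64 genes were listed in testes and few in sperm. In control testes, 47 genes (73.4%) had a value above 0 in both samples, compared with 61.4% of all genes with a RefSeq mRNA. In control sperm, 14 genes (21.9%) were listed in at least 2 of pools 2 to 4, compared with 19.7% of all such genes, and this count fell to 4 without pool 2 or without pool 4. Pool 2, the deepest, listed 36 of the 64 genes, whereas pools 1, 3 and 4 listed 7, 4 and 14. Only Rad9a and Ercc2 were listed in all 10 libraries (3.13% of the 64 genes, against 4.59% of all mRNA genes). A further 18 genes (28.1%, against 33.5% of all mRNA genes) were in none of the 6 sperm libraries, among them Atm, Parp1, Msh5, Xrcc4, Rad9b and Fancd2os. Of these 18, 13 had 10 or fewer counts over the 4 testes libraries together, so few or no counts would be seen at that share in the shallower sperm libraries.

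The counts were concentrated on other genes in sperm than in testes. Rad9a and Ercc2 together held 59.9, 50.5, 71.8 and 45.1% of the repair gene counts in control sperm 1 to 4, and 52.3 and 55.8% in cadmium sperm. They held 11.7 and 20.0% in the testes of control animals and 15.0 and 22.9% in those of cadmium animals. The 95% Wilson intervals, which cover counting error only, ran from 36.8 to 53.6% in control sperm 4, the lowest sperm library, and from 20.7 to 25.3% in cadmium testes 2, the highest testes library. Fanci and Fancl showed the opposite order, with 42.2 and 43.5% of the repair gene counts in control testes, 38.6 and 44.4% in cadmium testes, and between 0 and 10.9% in the 6 sperm libraries.

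**Figure D1:**
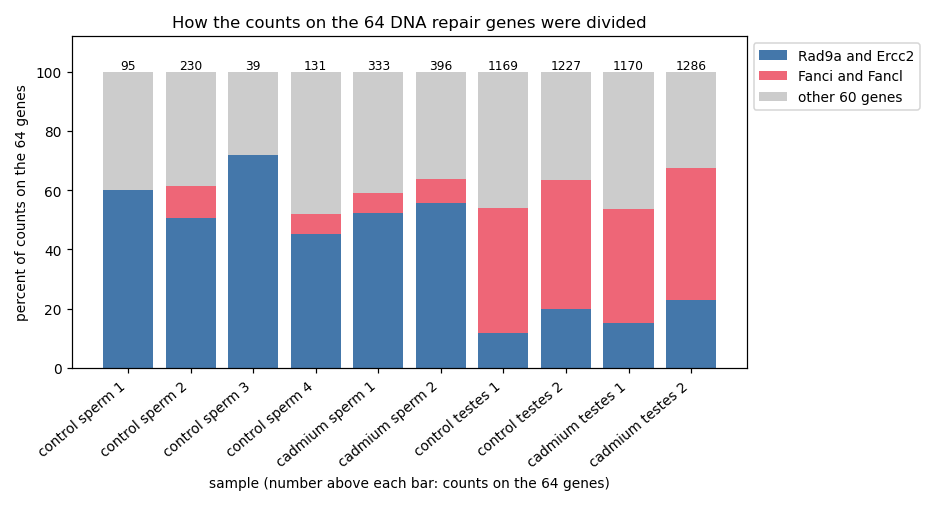
Stacked bars give, for each library on the x axis, the percent of the expected counts on the 64 genes (y axis) held by Rad9a and Ercc2, by Fanci and Fancl, and by the other 60 genes, with the counts on all 64 genes above each bar. Rad9a and Ercc2 held 45.1 to 71.8% in the sperm libraries and 11.7 to 22.9% in testes.

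Rad9a (chr19:4195196-4201672, mm10/GRCm38) encodes a subunit of the sliding clamp that signals damaged DNA to the ATR checkpoint kinase. Its level was 32.87, 22.02, 16.36 and 29.3 FPKM in control sperm 1 to 4 and 19.29 and 45.47 in cadmium sperm. Control testes had 10.08 and 19.35 FPKM, and cadmium testes 13.14 and 25.42. It ranked 1 of the 64 genes in control sperm 2 to 4 (22.6 ± 6.49 FPKM, SD, n = 3) and 3 in control testes (14.7 ± 6.55, SD, n = 2). Sperm and testes values overlapped. The gene shares 224 bases with Ppp1ca, a phosphatase subunit, which was listed at 13.34 FPKM in control sperm 4, at 0.6 in cadmium sperm 2 and at 0 in the other sperm libraries.

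Ercc2 (chr7:19382017-19395694) encodes the XPD helicase of TFIIH, which opens DNA around a lesion and also serves the start of transcription. Its level was 19.43, 18.48, 12.44 and 16.18 FPKM in control sperm 1 to 4, 31.62 and 23.95 in cadmium sperm, 7.83 and 15.73 in the testes of control animals and 10.1 and 16.49 in those of cadmium animals. Both cadmium sperm values were above every other library, while control sperm and testes overlapped. Its end shares 1255 bases with Klc3, a kinesin light chain of the sperm tail, which was at 23.83, 6.87, 4.61 and 0 FPKM in control sperm, 10.15 and 14.26 in cadmium sperm and 16.65 to 26.8 in testes. In control sperm 4 Klc3 was listed at 0. The libraries kept strand, but no source states whether the counting used it, so reads over such an overlap could count for either gene, and its part in these values was not tested. In all, 33 of the 64 genes overlap another RefSeq gene, 22 of them a protein-coding one.

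Fanci (chr7:79392312-79450266) encodes a partner of FANCD2 in the clamp that is loaded on crosslinked DNA, and Fancl (chr11:26387084-26471883) the ubiquitin ligase that marks this clamp. Fanci was at 0, 3.69, 0 and 2.99 FPKM in control sperm 1 to 4, 2.63 and 3.81 in cadmium sperm, 26.33 and 30.08 in the testes of control animals and 22.42 and 32.47 in those of cadmium animals. Fancl was at 0, 3.81, 0 and 2.27 FPKM in control sperm, 3.98 and 4.59 in cadmium sperm, 29.49 and 38.76 in the testes of control animals and 32.39 and 35.78 in those of cadmium animals. The values of both genes were separated without overlap between the 6 sperm and the 4 testes libraries. Fanci shares 4036 bases with Polg, which was at 0.57 to 1.79 FPKM in sperm and 4.88 to 8.31 in testes. Fancl shares 486 bases with Vrk2, which was at 0 to 9.64 FPKM in sperm and 7.56 to 12.6 in testes. The part of reads over these shared bases in the values of Fanci and Fancl was not tested. Fancl ranked 1 and Fanci 2 among the 64 genes in control testes, and 8 and 7 in control sperm. Fancd2, whose protein pairs with FANCI, was at 0.22 and 0.57 FPKM in control testes.

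**Figure D2:**
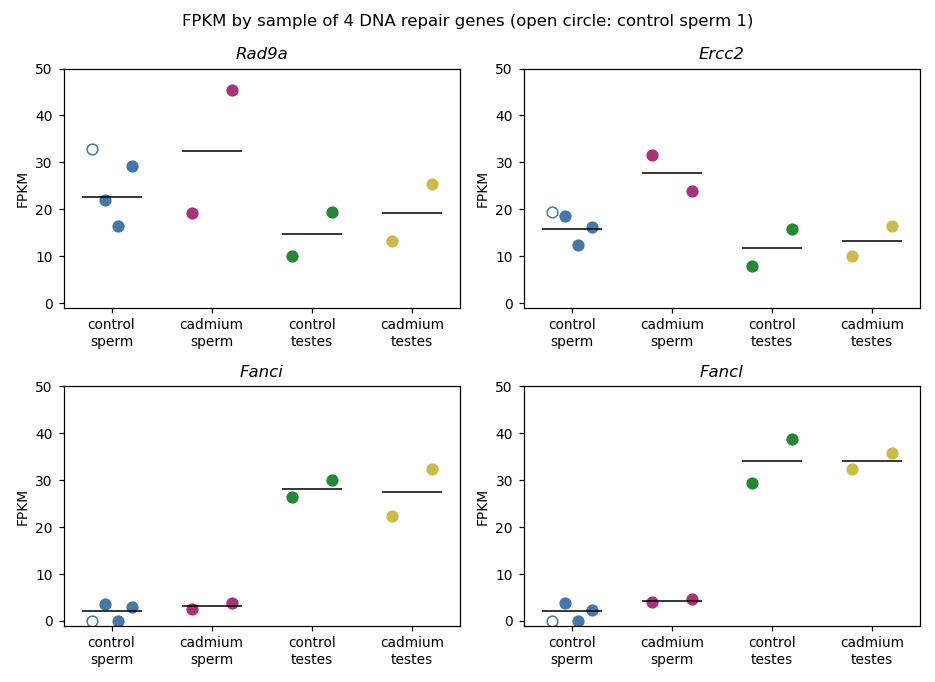
FPKM (y axis) of Rad9a, Ercc2, Fanci and Fancl in each library, grouped on the x axis, with black lines at the group means, which leave out control sperm 1 (open circle). Fanci and Fancl were at most 4.59 in sperm and at least 22.42 in testes, whereas the sperm and testes values of Rad9a and Ercc2 overlapped.

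The promoters of these genes are shown to set a gene listed in every library beside 3 that were lower in sperm. The RefSeq table of GRCm38.p6 holds 300 bases a promoter, 250 before and 50 after the start, for 48 of the 64 genes (53 promoters). Rad9a is not among them. Capitals mark the GC box GGGCGG and the CCAAT box CCAAT on either strand. The entries are Ercc2 (chr7:19381767-19382066, plus strand), Fanci (chr7:79392088-79392387, plus strand), Fancl (chr11:26386834-26387133, plus strand) and Fancd2os (chr6:113600666-113600965, minus strand).
Ercc2: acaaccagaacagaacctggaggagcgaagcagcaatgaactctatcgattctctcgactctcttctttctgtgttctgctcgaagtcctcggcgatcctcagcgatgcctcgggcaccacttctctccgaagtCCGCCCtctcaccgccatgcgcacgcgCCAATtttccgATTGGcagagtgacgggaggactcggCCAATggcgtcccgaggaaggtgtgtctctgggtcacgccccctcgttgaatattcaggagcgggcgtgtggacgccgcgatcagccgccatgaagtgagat
Fanci: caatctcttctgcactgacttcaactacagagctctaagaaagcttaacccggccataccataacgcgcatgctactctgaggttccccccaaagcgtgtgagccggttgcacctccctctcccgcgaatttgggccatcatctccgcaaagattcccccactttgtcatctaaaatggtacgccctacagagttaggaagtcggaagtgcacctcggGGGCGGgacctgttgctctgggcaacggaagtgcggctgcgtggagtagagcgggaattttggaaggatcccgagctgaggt
Fancl: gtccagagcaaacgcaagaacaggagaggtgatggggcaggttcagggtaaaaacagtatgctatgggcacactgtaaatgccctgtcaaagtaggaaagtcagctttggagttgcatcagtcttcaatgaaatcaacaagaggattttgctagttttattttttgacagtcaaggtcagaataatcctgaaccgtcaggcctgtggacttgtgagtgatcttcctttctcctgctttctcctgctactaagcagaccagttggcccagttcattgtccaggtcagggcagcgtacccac
Fancd2os: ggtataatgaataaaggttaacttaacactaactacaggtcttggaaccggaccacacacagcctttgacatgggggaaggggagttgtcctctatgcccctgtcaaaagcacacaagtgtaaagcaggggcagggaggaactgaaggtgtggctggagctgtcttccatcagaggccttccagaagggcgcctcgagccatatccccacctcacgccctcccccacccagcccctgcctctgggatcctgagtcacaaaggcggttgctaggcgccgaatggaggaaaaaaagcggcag

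The promoters of the 3 genes that were lower in sperm had little in common in these letters. Ercc2 held 1 GC box and 3 CCAAT boxes, Fanci held 1 GC box and no CCAAT box, and Fancl and Fancd2os held neither. Their GC content was 58.7, 55.3, 47.0 and 55.7% for Ercc2, Fanci, Fancl and Fancd2os, against a median of 59.7% over the 53 repair gene promoters and 52.7% over all 32851 promoters. A GC box stood in 31 of the 53 (58.5%) and in 35.7% of all promoters, and a CCAAT box in 27 (50.9%) and in 37.4%. The cAMP response element TGACGTCA, known from genes of late spermatogenesis, stood in 2 of the 53 (3.77%) and in 1.79% of all, and in none of the 4 shown. The MYB letters AACNGT stood in 9 (17.0%) and in 26.1% of all, with 2 matches in Fancl. A TATA box, TATAAA, stood in 5 (9.43%) and in 13.6% of all, and the E2F letters TTTCGCGC in 2 (3.77%) and in 0.323%. These motifs were searched on both strands, and matches are letters only.

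**Figure D3:**
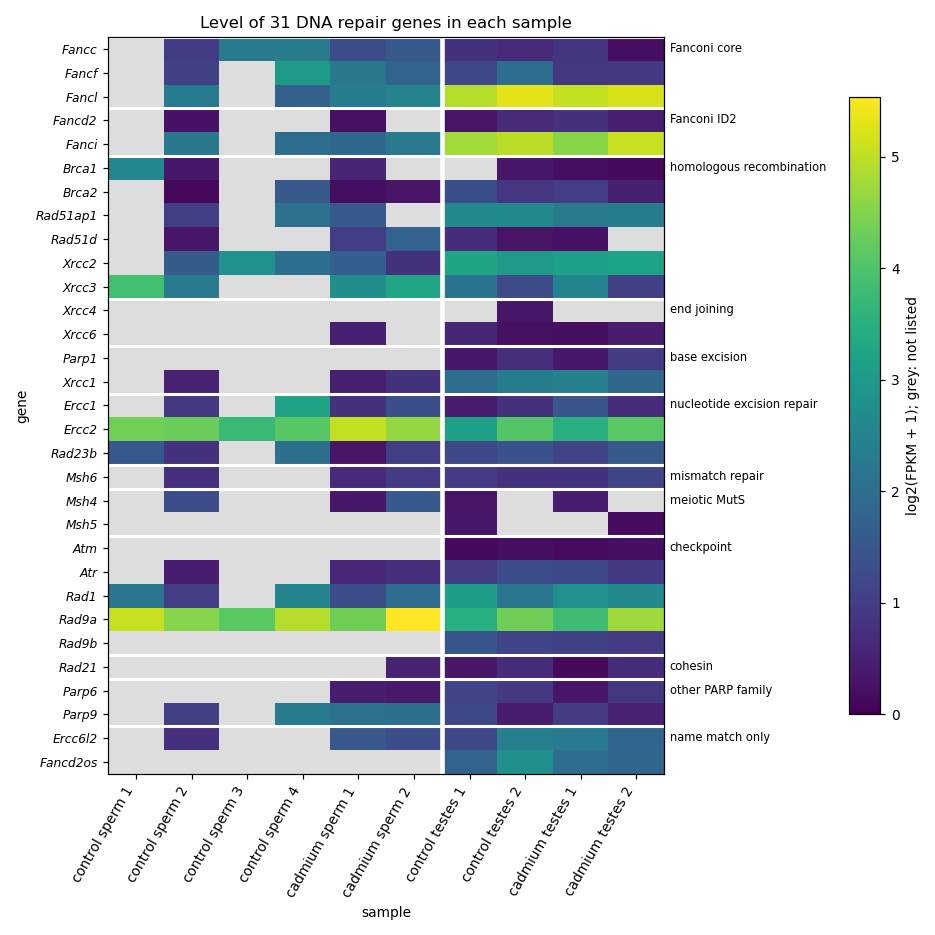
Level, log2(FPKM + 1), of 31 repair genes (rows, grouped by role) in the 10 libraries (columns, sperm left and testes right), with grey for a gene that a library did not list. Rad9a and Ercc2 are the only rows without grey, and Fanci and Fancl are brightest in testes.

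The Fanconi anaemia core complex assembles around Fancl. Summed over its 7 measured genes, the level was 34.02 and 45.74 FPKM in the control testes and 3.77 to 13.44 in control sperm 2 to 4. Most of the testes sum was Fancl, and the others were far lower. Fanca, another subunit of the complex, was at 1.24 and 1.96 FPKM in control testes and among the control sperm pools was listed in pool 2 alone, at 0.42, with 0.19 and 1.41 in cadmium sperm. Fancc lay the other way, at 0, 0.98, 3.77 and 4.05 FPKM in control sperm 1 to 4 and 1.4 and 1.92 in cadmium sperm, against 0.16 to 0.8 in the 4 testes libraries. These are small numbers, with 3.01 to 7 counts in the sperm libraries that listed it. Fancf, an adaptor of the complex, was at 1.14, 0 and 7.12 FPKM in control sperm 2 to 4, 3.65 and 2.4 in cadmium sperm, 1.27 and 3.03 in the testes of control animals and 0.85 and 0.9 in those of cadmium animals.

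Homologous recombination genes summed to 15.76 and 21.1 FPKM in control testes and 6.02 to 11.07 in control sperm 2 to 4. Brca1, which helps to prepare broken ends, was at 4.97, 0.28, 0 and 0 FPKM in control sperm 1 to 4, 0.52 and 0 in cadmium sperm, 0 and 0.29 in the testes of control animals and 0.16 and 0.11 in those of cadmium animals. Only the pool that was set aside listed Brca1 above 1 FPKM.

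Xrcc2 and Xrcc3 encode related proteins of strand exchange. Xrcc2 was at 0, 2.09, 6.02 and 3.04 FPKM in control sperm 1 to 4, 2.17 and 0.75 in cadmium sperm, 8.45 and 6.88 in the testes of control animals and 7.93 and 8.22 in those of cadmium animals. Every testes value was above every sperm value. Xrcc3 was at 13.61, 3.88, 0 and 0 FPKM in control sperm, 5.68 and 8.51 in cadmium sperm, 3.45 and 1.43 in the testes of control animals and 4.64 and 1.07 in those of cadmium animals. The control sperm pools thus spanned all the testes values of Xrcc3.

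Brca2, a central gene of break repair by recombination, was at 0, 0.09, 0 and 1.94 FPKM in control sperm, 0.16 and 0.22 in cadmium sperm, 1.5 and 0.84 in the testes of control animals and 1.01 and 0.4 in those of cadmium animals. Its counts moved between 2 transcripts. In replicate 1 of both testes groups all of them, 48 and 32, were given to the transcript of 11133 bases, and in replicate 2 all of them, 24 and 12, to the one of 10939 bases. Rad51ap1, which helps strands to join, was at 5.25 and 5.14 FPKM in control and 3.92 and 4.12 in cadmium testes, against 0, 1.05, 0 and 3.28 in control sperm and 1.92 and 0 in cadmium sperm. The summed genes were used in what follows, since the split between transcripts was not stable.

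Nucleotide excision repair summed to 14.73 and 22.77 FPKM in control testes and 12.44 to 30.69 in control sperm 2 to 4, most of it Ercc2. The endonuclease gene Ercc1 was at 0, 0.9, 0 and 8.17 FPKM in control sperm, but with 5 counts at the highest. Rad23b, which encodes a carrier of the lesion sensor XPC, was at 1.87, 0.75, 0 and 3.11 FPKM in control sperm, 0.23 and 1.05 in cadmium sperm and 1.21 to 1.95 in testes, so that the tissues overlapped.

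The checkpoint and damage tolerance genes summed to 21.14 and 27.48 FPKM in control testes and 16.36 to 33.94 in control sperm 2 to 4, with Rad9a the highest gene in each. Atm and Atr encode the kinases at the head of the damage response. Atm was at 0.1 to 0.17 FPKM in testes, on 3.46 to 5.45 counts, and at 0 in the 6 sperm libraries. Atr was at 0.95 and 1.47 FPKM in control testes, 1.35 and 0.91 in cadmium testes, 0, 0.35, 0 and 0 in control sperm and 0.53 and 0.69 in cadmium sperm. Rad1, the clamp partner of RAD9A, was at 3.49, 1, 0 and 4.64 FPKM in control sperm, 1.49 and 2.92 in cadmium sperm and 3.48 to 7.54 in testes. Rad9b, the paralog of Rad9a, was at 0.95 to 1.8 FPKM in testes, on 4 to 8 counts, and at 0 in the 6 sperm libraries. With so few counts in testes, zeros in the shallower sperm libraries do not show that its pattern differs from that of Rad9a. Rad9b also shares 1059 bases with Pptc7, which was at 0 to 7.75 FPKM in sperm and 10.35 to 15.66 in testes. The part of that overlap in the values of Rad9b was not tested.

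The remaining routes were low in both tissues. Base excision and single-strand break repair summed to 3.65 and 5.06 FPKM in control testes and 0 to 0.44 in control sperm 2 to 4. Its scaffold gene Xrcc1 was at 2.97 and 4 FPKM in control testes, 4.32 and 2.62 in cadmium testes, 0, 0.44, 0 and 0 in control sperm and 0.41 and 0.75 in cadmium sperm. Parp1, whose enzyme flags broken strands with ADP-ribose, was at 0.28 to 0.97 FPKM in testes and at 0 in sperm. End joining genes summed to 0.45 and 0.64 FPKM in control testes and to 0 in control sperm 2 to 4, where neither the Ku gene Xrcc6 nor the ligase partner Xrcc4 was listed. Mismatch repair summed to 0.83 and 1.61 FPKM in control testes, led by Msh6 at 0.99 and 0.73. The meiotic crossover genes were low in testes too, at 0.14 and 0.48 FPKM summed in control testes, with Msh4 at 0.22 and 0 and Msh5 at 0.26 and 0. Msh4 was higher in single sperm libraries, at 1.47 FPKM in control sperm 2 on 5 counts and at 0.27 and 1.98 in cadmium sperm.

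The other genes of these names were not much higher. The cohesin gene Rad21 was at 0.29 and 0.64 FPKM in control testes and was listed in 1 sperm library, cadmium sperm 2, at 0.44. Among the other PARP family genes, Parp6 was at 1.2 and 0.88 FPKM in control testes and at 0 in the control sperm pools. Parp9, known from the interferon response, was at 0, 1.07, 0 and 3.89 FPKM in control sperm, 3.17 and 3.15 in cadmium sperm, 1.28 and 0.33 in the testes of control animals and 0.99 and 0.42 in those of cadmium animals. Ercc6l2, a relative of the Cockayne syndrome helicase gene, was at 0, 0.7, 0 and 0 FPKM in control sperm, 1.93 and 1.48 in cadmium sperm, 1.29 and 4.15 in the testes of control animals and 3.93 and 2.48 in those of cadmium animals. Fancd2os, which is named for its place opposite Fancd2 and overlaps it by 260 bases, was at 2.39 and 5.85 FPKM in control testes, 2.94 and 2.53 in cadmium testes and 0 in the 6 sperm libraries.

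The first comparison asked which of these genes differ between mature sperm and testes of control animals. Fanci, Fancl, Fancd2os and Rad9b were lower in sperm, and no gene of the set was called higher. Fancd2os belongs to the set by name only. The test was edgeR's quasi-likelihood test on counts summed by gene. A gene was called when its change was more than 2-fold and its p, adjusted over all genes by the method of Benjamini and Hochberg, was under 0.05. Of the 64 genes, 19 reached 1 FPKM in 2 of the 5 libraries and were tested. Of these 19, 6 had no sperm library at 1 FPKM and so entered through testes alone, Fancd2os and Rad9b of the 4 called genes among them, and 1 had no testes library at that level. Among all 24432 genes tested, 4.19% were called higher and 17.8% lower in sperm, and the 4 of 19 repair genes lower (21.1%) are read against that background. The median log2 fold change was -1.98 over the 19 repair genes and -1.24 over all genes tested.

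Fanci had a log2 fold change of -3.69 (SE 0.89, edgeR adjusted p 0.00216) and Fancl of -4.01 (SE 1.14, adjusted p 0.0129) in control sperm 2 to 4 against control testes. The SE is worked back from the test statistic and is not a spread between samples. Summed over libraries, the share of Fanci in all counts was 9.99-fold lower in sperm than in testes, and that of Fancl 12.6-fold lower. At its testes share, Fanci would have given 47.3 counts in control sperm 3 and 65.7 in control sperm 4, where 0 and 7 were seen. The call on Fanci was lost without control sperm 4 (log2 fold change -3.54) and by limma on log2(FPKM + 0.1) (-4.74), and was kept without each of the other libraries. The call on Fancl was lost without control sperm 2 (-5.08), control sperm 4 (-3.73), control testes 1 (-4.38) or control testes 2 (-3.93). It was also lost without a filter (-3.95), by limma on log2(FPKM + 0.1) (-5.12) and with control sperm 1 added and a replicate block (-4.16).

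Fancd2os (fitted log2 fold change -6.17, SE 2.32, edgeR adjusted p 0.0465) and Rad9b (-4.89, SE 1.84, adjusted p 0.0465) were at 0 in all 3 sperm pools tested, so their fitted folds are no measure of size. Against a floor of 3 counts over the 3 pools together, Fancd2os was at least 3.41-fold lower and Rad9b at least 1.53-fold lower in sperm, on 29 and 13 counts in the 2 testes libraries. The bound for Rad9b lies below the 2-fold limit of the call. DESeq2 called neither gene, and each call was lost when any 1 of the 3 pools was left out. The fitted values then lay between -6.33 and -6.26 for Fancd2os and between -5.07 and -5.02 for Rad9b.

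The 15 other tested genes ranged from a log2 fold change of -3.90 to 1.69 and did not pass the test (lowest adjusted p 0.115). Rad9a (0.35, SE 0.95, edgeR adjusted p 0.826) and Ercc2 (0.16, SE 0.87, adjusted p 0.919) were near 0. The sperm-leaning Fancc was at 1.69 (SE 1.57, adjusted p 0.457). At their testes share, 20 of the 64 genes would have given at least 3 counts in control sperm 2, 10 in control sperm 3 and 14 in control sperm 4. Of these, 1, 7 and 6 were listed at 0. In control sperm 3 the 7 were Atr, Brca2, Ercc6l2, Fanci, Fancl, Rad1 and Rad51ap1.

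The same question could be asked again in cadmium animals, whose sperm and testes libraries share no sample with the control ones. Fanci, Fancl, Fancd2os and Xrcc2 were lower in cadmium sperm than in cadmium testes, and Rad51d, Parp9 and Xrcc3 were higher. Of the 64 genes 20 were tested, 2 of them with no sperm library and 4 with no testes library at 1 FPKM. Of the called genes, Fancd2os entered through testes alone, and Rad51d and Parp9 through sperm alone. Among all 25780 genes tested, 16.3% were called higher and 15.4% lower, so that 3 higher and 4 lower of 20 (35%) stand close to the background. The median log2 fold change was -0.71 over the 20 genes and -0.29 over all genes.

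Fanci (log2 fold change -2.87, SE 0.59, edgeR adjusted p 1.65e-05) and Fancl (-2.75, SE 0.62, adjusted p 0.000101) kept their calls under each of the 13 alternatives run, at -3.44 to -2.41 and -3.16 to -2.49 with a library left out. Fancd2os was again at 0 in sperm and at least 2.89-fold lower against 3 counts over the 2 libraries (adjusted p 0.0260). That call was lost without cadmium sperm 1 (fitted -5.99) or cadmium sperm 2 (-6.01), by DESeq2 (-4.33), in the fit with the replicate number as a block (-5.81) and in 1 model of the 9 samples (-5.70). Xrcc2 (-2.28, SE 0.69, adjusted p 0.00555) lost its call without cadmium sperm 2 (-1.75), cadmium testes 1 (-2.64) or cadmium testes 2 (-2.12), by limma on log2(FPKM + 0.1) (-2.56) and in 1 model of the 9 samples (-2.64).

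The 3 genes that were higher in cadmium sperm rested on few counts. Xrcc3 had 16 and 26 counts in cadmium sperm and 32 and 7 in cadmium testes (log2 fold change 1.68, SE 0.66, edgeR adjusted p 0.0366). Parp9 had 13 and 14 counts in sperm and 10 and 4 in testes (2.42, SE 0.81, adjusted p 0.0122). Rad51d, a recombination gene like Xrcc3, had 2 and 5 counts in sperm and 2 and 0 in testes (3.10, SE 1.22, adjusted p 0.0369). The ratio between its shares of all counts was 8.07, with a 95% exact counting interval of 1.54 to 79.6. That interval covers counting error only, whereas replicates differed by 14.7 times the sampling noise in cadmium sperm and 9.57 times in cadmium testes. Rad51d entered through sperm alone and was singled out after its call, so the interval gives no support for a difference. DESeq2 and limma called none of these 3 genes. Without cadmium testes 1 or 2 none of the calls remained, at 2.59 and 1.00 for Xrcc3, 2.73 and 2.01 for Parp9 and 5.28 and 2.30 for Rad51d. Without cadmium sperm 2 the call on Xrcc3 was also lost (1.21). Rad9a (0.98, SE 0.54, adjusted p 0.152) and Ercc2 (1.23, SE 0.54, adjusted p 0.0651) stayed below the threshold. Ercc2 did pass in 3 of the alternatives (1.13 to 1.46), among them the replicate number as a block (1.33). Without cadmium sperm 1, which left 1 sperm library, Rad9a was at 1.59.

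Over the 17 genes tested in both contrasts, 16 had the same sign. Pearson's r of the log2 fold changes was 0.891 and Spearman's rho 0.841, as a description across genes, which are not independent replicates and were filtered on their level. Fanci, Fancl and Fancd2os were called in both. Xrcc3 was the gene whose sign differed, at -0.61 (SE 1.52) in control and 1.68 in cadmium animals. Markers moved with the contrast between the tissues as well, since Gfra1, of spermatogonia, was lower in control sperm (-3.71, SE 0.94, edgeR adjusted p 0.00413) and in cadmium sperm (-4.77, SE 0.70, adjusted p 3.90e-10). Other markers moved the other way. Krt18, of epithelia, was higher in control sperm (3.52, edgeR adjusted p 0.0487) and in cadmium sperm (6.11, adjusted p 0.000837). It was the only one called of the 4 epididymal markers tested in each contrast. Among the others, Krt8 was at -1.42 in control and -1.75 in cadmium animals, and Epcam at -0.70 and 0.76. The spermatogonial genes Id4 (3.97, edgeR adjusted p 0.000437) and Sohlh1 (3.61, adjusted p 0.00021) and the Sertoli gene Amhr2 (2.69, adjusted p 0.0359) were higher in cadmium sperm. The 10 spermatogonial markers summed to 3.12 to 15.12 FPKM in control sperm, 17.74 and 22.64 in cadmium sperm and 25.55 to 31.31 in testes. Their part in the repair gene differences was not tested.

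**Figure D4:**
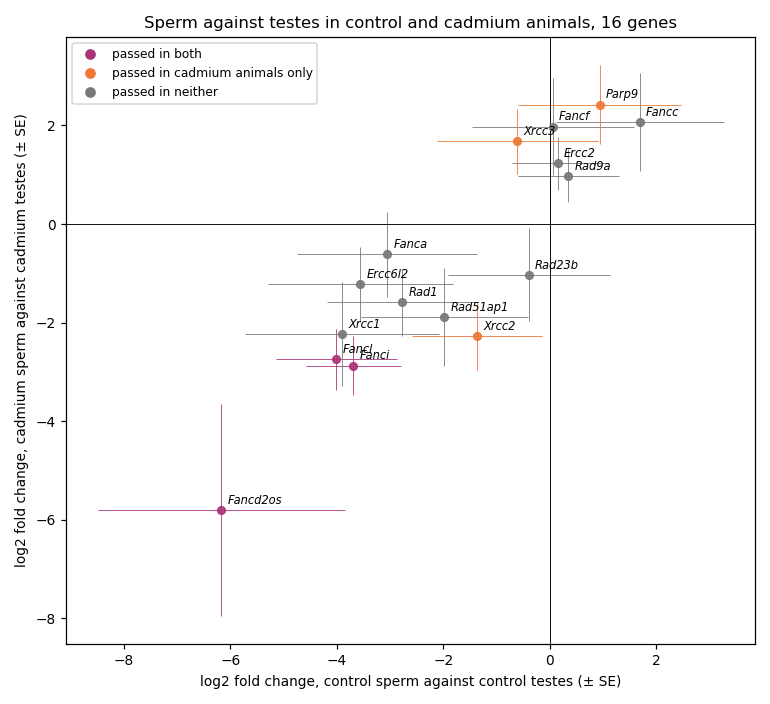
Log2 fold change of sperm against testes, in control animals (x axis) and cadmium animals (y axis), for 16 of the 17 genes tested in both, with bars of 1 SE worked back from the edgeR test. Fancd2os, Fancl and Fanci passed in both and lie lowest, and Rad9a and Ercc2 lie near 0 on the x axis and at 0.98 and 1.23 on the y axis.

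In testes, no tested repair gene passed the threshold for a difference between cadmium and control. The control and cadmium testes values overlapped for Rad9a, Ercc2, Fanci and Fancl alike. Of 19 genes tested, edgeR called 0, and 0 had an unadjusted p under 0.05, as by DESeq2 and limma. Among all 26724 genes, 0.0187% were called higher and 0.00374% lower. The repair genes lay between -1.25 and 0.46 on the log2 scale, with a median of 0.03 against 0.02 over all genes. Fanci and Fancl were at 0.05 each (SE 0.50 and 0.49, adjusted p 1.00), Xrcc2 at 0.17 (SE 0.48) and Rad1 at 0.03 (SE 0.50). Fancf had the lowest value, -1.25 (SE 0.86), on 19 counts in control and 8 in cadmium testes. For Rad9a and Ercc2 the libraries of a group lay further apart than the group means. Replicate 2 was the higher in both groups, with 19.35 against 10.08 FPKM in control and 25.42 against 13.14 in cadmium testes for Rad9a. The SE of the 19 genes were 0.48 to 0.98 log2 units. A call needed a change of more than 2-fold and an adjusted p under 0.05 over 26724 genes, so changes larger than an SE could also go uncalled.

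In sperm, too, no tested repair gene passed the threshold. Of 19 genes tested edgeR called 0, with 0 at an unadjusted p under 0.05, and DESeq2 and limma on log2(FPKM + 1) also gave 0 calls. Among all 20640 genes, 0.0484% were called higher and 0.0339% lower. The values were wider than in testes, from -1.33 for Ercc1 to 2.18 for Ercc6l2, with SE of 0.68 to 2.05. The median was 0.62 over the 19 genes and 0.43 over all genes, and 0.42 and 0.27 with the size factors of the relative log expression method. Ercc2, whose values in both cadmium sperm libraries were above those of the 4 control pools, was at 0.84 (SE 0.68, edgeR adjusted p 1.00). Rad9a was at 0.62 (SE 0.76) and went to -0.31 without cadmium sperm 2. Xrcc3 was at 2.10 (SE 1.63), but control sperm 1, left out of the test, held more of it than either cadmium library, 13.61 against 5.68 and 8.51 FPKM.

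The effect of cadmium in sperm was also set against that in testes in 1 model of 9 samples. Of 28 repair genes tested, edgeR called 0, with 0 at an unadjusted p under 0.05. Among all 32814 genes, 0.00914% were called higher and 0.0305% lower. The difference was 0.13 (SE 1.14) for Rad9a, 0.56 (SE 1.08) for Ercc2, 0.29 (SE 1.13) for Fanci and 0.72 (SE 1.35) for Fancl on the log2 scale. Each difference was smaller than its SE, which does not show that the effects were alike.

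**Figure D5:**
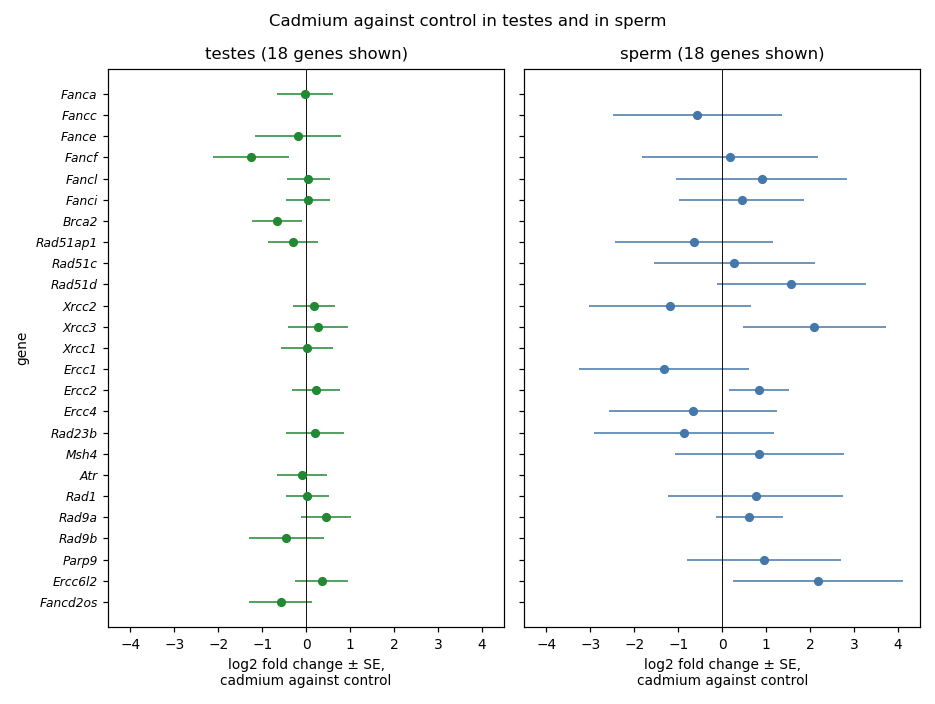
Log2 fold change of cadmium against control (x axis) in testes (left) and sperm (right) for 18 of the 19 repair genes (rows) tested in each tissue, with bars of 1 SE worked back from the edgeR test. Bars in sperm are longer (SE 0.68 to 2.05) than in testes (0.48 to 0.98), and no gene passed the threshold in either tissue.

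Repair genes outside the name rule were examined as a list of 75, of which 66 had a RefSeq mRNA in these samples. In control animals 22 were tested, of which edgeR called 4 lower in sperm and 0 higher, beside 17.8% lower and 4.19% higher over all genes. They were Mpg, a glycosylase gene, Trp53bp1, which directs the choice of break repair, Pcna, the replication clamp gene, and Usp1, whose enzyme removes ubiquitin from the FANCD2 and FANCI clamp. Usp1 was at 2.05 and 1.62 FPKM in control testes, at 0 in the 4 control sperm pools and at 0.24 and 0.45 in cadmium sperm. Of the 4 called genes, Mpg, Trp53bp1 and Usp1 had no tested sperm pool at 1 FPKM and so entered through testes alone. In cadmium animals 22 were tested, of which 7 were lower and 3 higher in sperm, beside 15.4% lower and 16.3% higher over all genes. The higher genes were Ung, the uracil glycosylase gene, at 6.81 and 9.28 FPKM in cadmium sperm against 0 and 0.39 in cadmium testes, Mbd4 at 21.27 and 5.51 against 3.61 and 2.4, and Mgmt at 1.11 and 4.09 against 0.46 and 0. Mpg, Trp53bp1 and Pcna were lower again, joined by Ddb2, Recql, Eme1 and Rnf8. Here Ung and Mgmt entered the test through sperm alone, and Trp53bp1 and Rnf8 through testes alone. For cadmium against control, edgeR called 0 of 21 tested genes of the list in testes and 0 of 19 in sperm, with 0 at an unadjusted p under 0.05 in each.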

How the data were processed

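Total RNA of mouse sperm and testes was depleted of ribosomal RNA, sequenced strand-specifically and aligned by the authors, with SOAPaligner/SOAP2 per the study's methods and with HISAT on mm10 per the submitters' processing notes. The program that counted is not given in the sources used here. The authors deposited, per transcript above 0, an expected count (an estimate, not normalized, 29.3 to 40.3% of them not whole) and an FPKM (scaled to length and library).

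Both were summed by gene, and an unlisted gene was taken as 0. Summed counts were rounded and tested with edgeR 4.0.16 (quasi-likelihood test, TMM, R 4.3.3) over genes that reached 1 FPKM in 2 or more samples of a comparison, with Benjamini-Hochberg adjustment over all of them. The fits were checked on simulated counts. DESeq2 1.42.0, limma 3.58.1 on log2(FPKM + 1) and log2(FPKM + 0.1), other scalings and filters, 1 model of 9 samples, control sperm 1 added, the replicate number as a block and each replicate left out were alternatives. Replicates differed by 9.57 to 16.5 times the sampling noise (chi-square per degree of freedom), so none agreed within sampling noise. Pathway roles, gene lists and members were chosen with earlier results of these data known. Genes named are the 2 highest of each role in control testes, up to 5 called each way per comparison, the 12 highest in control sperm, and Atm, Atr, Brca1, Brca2, Ogg1 and Parp1. Some genes that this rule names are not reported here, though sums and counts over the 64 genes include them. Fanca, the neighbours and the examples of the other list were named after their values were seen. The pairs Rad9a with Ercc2 and Fanci with Fancl were also formed after their values were seen. Positions and overlaps come from RefSeq on GRCm38.p6, the build family of mm10. Python 3.11.15, pandas 2.3.3, scipy 1.17.1 and matplotlib 3.10.9 were used.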

Additional observations from a re-analysis of the deposited data

Results flagged for a closer look

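Among 31 named repair genes, a pool that stood apart by Dixon's criterion for 4 values at 95% was seen in 11. The criterion's rate of about 1 group in 20 does not hold for sparse counts. In each of the 11 genes 2 or 3 pools were at 0, so their number cannot be set against that rate. In 7 of these, control sperm 2, the deepest pool, was the only control sperm pool that listed the gene, with Atr at 0.35, Ercc6l2 at 0.7, Fancd2 at 0.2, Msh4 at 1.47, Msh6 at 0.67, Rad51d at 0.27 and Xrcc1 at 0.44 FPKM. With 3 pools at 0, any value in the fourth meets the criterion. In control sperm 4, Brca2 at 1.94, Ercc1 at 8.17 and Fancf at 7.12 FPKM stood above the other pools, and in control sperm 1 Brca1 at 4.97. The share of mRNA counts on the 64 genes was lowest in control sperm 3, at 0.116%, with 3 pools close together above it. Control sperm 1, which the main comparisons left out, held more than pools 2 to 4 of Brca1 (4.97 FPKM), Ercc2 (19.43), Rad9a (32.87) and Xrcc3 (13.61).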

How the results depend on the processing

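In the comparison of control sperm with control testes, 4 repair genes were called changed, against 1 without a filter, 2 by DESeq2 and 0 to 2 with a replicate left out. Over all genes the same settings called 5373, 1344 and 3315. With control sperm 1 added and a replicate block, 1 repair gene was called (1404 genes in all). In cadmium animals, 7 repair genes were called, against 4 without a filter, 3 by DESeq2, 4 and 3 by limma with a pseudocount of 1 and 0.1, 2 in 1 model of the 9 samples and 2 to 6 with a replicate left out. With a replicate block 6 were called. All of the other settings stayed within 1.5 times. In the 3 comparisons that involve cadmium against control, 0 repair genes were called under each setting that was run. The 14 genes listed in control sperm became 4 if all 3 pools had to list them and 4 to 14 with a replicate left out, and the 47 listed in control testes became 16 at 1 FPKM.

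Among the single genes recomputed (those called, with Rad9a and Ercc2), the sign turned for Rad9a and Ercc2, with a replicate left out. The median over the repair genes for cadmium in testes turned from 0.03 to -0.02 and -0.03 by limma (pseudocount 1 and 0.1) and to -0.28 and -0.30 without cadmium testes 2 or control testes 1. Their ranges of log2 fold change were -0.17 to 0.83 and -0.38 to 0.69 for control sperm against testes, -0.34 to 1.27 and -0.41 to 1.09 for cadmium in testes, and -0.31 to 1.13 for Rad9a for cadmium in sperm. The cause was not tested. Same-numbered control and cadmium testes deviated together (r = 0.468 over 22892 genes), and the block raised the genes called for cadmium in testes from 6 to 89, of which 0 were repair genes. With 2 pairs, the numbers do not show a pairing. Few counts per gene limit all of these values.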
